A study of Mus musculus with 19 samples.

Results

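Early sustained induced TEAD distal peaks are the sites of mouse liver chromatin, away from promoters, where TEAD was called after 3 days and again after 7 days of YAP induction but not in livers without the YAP transgene. They were chosen by the TEAD peak calls themselves: a peak of the 7 d TEAD list was taken when it overlapped by at least 1 bp a peak of the 3 d TEAD list and no peak of the WT TEAD list, and when it lay outside the window from 2000 bp upstream to 1000 bp downstream of every protein-coding transcription start. Of the 38984 TEAD peaks at 7 d, 27753 overlapped a 3 d peak, 22283 of these overlapped no WT peak, and 15539 of these lay away from promoters. These 15539 peaks, called early distal peaks here, were 39.9% of the 7 d list. Of them, 15522 lay on the numbered chromosomes and X, where annotation and sequence could be read, and 17 on unplaced contigs.

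The peaks come from ChIP-seq, sequencing of the DNA precipitated with an antibody, in livers of C57BL/6 mice that carried ROSA26-rtTA-IRES-EGFP, the doxycycline-dependent activator rtTA at the ROSA26 locus. The 3 d and 7 d groups also carried tetYAP, an activated YAP allele under rtTA control, and received doxycycline food for 3 or 7 days, while the WT group lacked tetYAP and received the same food for 7 days. According to the methods of the study, an albumin-driven Cre switched on rtTA, so that induction is directed to hepatocytes although whole liver was sampled. In all, 19 samples formed 6 groups (YAP or TEAD antibody in WT, 3 d and 7 d livers) of 3 replicates each, with 4 for TEAD at 7 d. The replicates of each group had been merged before peaks were called, so each group is 1 peak list and no spread between animals could be computed. After merging, there were 35168765 tags for TEAD in the WT group, 55032002 in the 3 d group and 38523843 in the 7 d group, against 34260362 for YAP in the 7 d group. Intervals given with shares are 95% Wilson intervals, and those given with differences are built from them. They cover counting error over peaks only, not variation between animals.

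TEAD proteins are the DNA-binding partners of YAP, a coactivator without a DNA-binding domain of its own that the kinases of the Hippo pathway keep out of the nucleus. TEAD recognises the MCAT element, CATTCC, and brings YAP mostly to enhancers, often together with AP-1. In adult hepatocytes enhancers are occupied by HNF4A, FOXA, C/EBP and HNF1, the factors that hold the hepatocyte programme, and sustained YAP activity is known to turn hepatocytes towards a progenitor and biliary state.

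The sequences of some of the strongest early distal peaks show what TEAD was called on. Each window is centred on the 7 d summit and read 5′ to 3′ on the plus strand of mm9. Capitals mark CATTCC on either strand (GGAATG where it lies on the minus strand) and the AP-1 element TGANTCA. The following 5 windows belong to the early distal peaks with the highest TEAD fold enrichment at 7 d.
Krtap16-7 window, chr16:89347291-89347411: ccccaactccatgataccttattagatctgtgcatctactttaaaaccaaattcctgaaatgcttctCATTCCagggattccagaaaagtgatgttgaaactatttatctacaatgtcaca
Gm10295 window, chr7:78609102-78609222: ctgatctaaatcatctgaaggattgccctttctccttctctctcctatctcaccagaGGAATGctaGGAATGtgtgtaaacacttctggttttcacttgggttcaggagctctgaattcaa
Gm9747 window, chr1:81714940-81715060: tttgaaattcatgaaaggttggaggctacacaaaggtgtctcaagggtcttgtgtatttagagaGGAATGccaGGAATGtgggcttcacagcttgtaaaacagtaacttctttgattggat
Ncald window, chr15:37685515-37685635: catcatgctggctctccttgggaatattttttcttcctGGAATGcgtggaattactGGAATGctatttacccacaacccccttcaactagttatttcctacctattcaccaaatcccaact
Exph5 window, chr9:53133965-53134085: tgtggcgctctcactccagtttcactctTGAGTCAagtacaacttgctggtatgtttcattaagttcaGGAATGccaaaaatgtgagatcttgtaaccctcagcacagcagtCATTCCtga
All 5 windows held at least 1 CATTCC. In the windows near Gm10295 and Gm9747, CATTCC was repeated on the same strand with 3 bases between the copies, an arrangement in which TEAD is known to bind as a pair. The window in an intron of Exph5 also held an AP-1 element.

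Another 5 windows are shown for their YAP peak, for the known target gene nearest to them, or for a TEAD pair. Those near Speer2 and Ntrk3 had 2 of the 5 strongest YAP peaks found at early distal peaks at 7 d, Ctgf and Amotl2 are classic YAP/TEAD targets, and Lif encodes a cytokine of the IL-6 family.
Speer2 window, chr16:69791049-69791169: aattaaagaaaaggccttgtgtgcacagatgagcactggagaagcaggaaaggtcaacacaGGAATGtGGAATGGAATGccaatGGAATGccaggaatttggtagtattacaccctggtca
Ntrk3 window, chr7:85174449-85174569: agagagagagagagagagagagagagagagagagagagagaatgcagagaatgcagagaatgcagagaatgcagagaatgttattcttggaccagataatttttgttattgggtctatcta
Ctgf window, chr10:24166031-24166151: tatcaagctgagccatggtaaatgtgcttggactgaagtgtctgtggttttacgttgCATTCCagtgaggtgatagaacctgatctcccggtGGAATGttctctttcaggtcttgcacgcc
Amotl2 window, chr9:102673669-102673789: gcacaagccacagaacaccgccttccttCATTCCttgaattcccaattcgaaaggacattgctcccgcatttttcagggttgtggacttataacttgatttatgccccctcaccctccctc
Lif window, chr11:4199369-4199489: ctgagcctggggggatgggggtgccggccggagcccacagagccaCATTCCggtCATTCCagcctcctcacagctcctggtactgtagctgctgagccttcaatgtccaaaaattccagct
The Speer2 window held 4 copies of CATTCC, of which a pair overlap, and the Ntrk3 window held none. The first part of the Ntrk3 window consisted of repeated ag and agaatgc units. The latter hold gaatg, the minus-strand form of CATTC, which is CATTCC without its last base. The window near Lif held the spaced pair, and the window of the highest Ctgf peak held 2 copies on opposite strands.

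The peak near Krtap16-7, a keratin-associated protein gene, was the highest early distal peak. It lay in intergenic sequence 56668 bp from the Krtap16-7 start. Its TEAD fold enrichment, the pileup of fragments at the summit over the local background, was 29.4 at 3 d and 73.5 at 7 d. The next peaks were found 112791 bp from Gm10295 (50.6 at 3 d and 71.6 at 7 d), 514687 bp from Gm9747 (45.5 and 71.4), in an intron of Ncald, which encodes a neuronal calcium sensor (22.5 and 65.7), and in an intron of Exph5, which encodes a Rab27 effector (37.1 and 63.3). All 5 overlapped a YAP peak at 7 d, with a YAP fold enrichment of 9.82, 12.4, 12, 16.2 and 13.9 in the same order. The 5 strongest YAP peaks at early distal peaks were those of Ncald and Exph5, a peak 15348 bp from Mrpl36 (YAP fold enrichment 14.6), the peak near Speer2 (14.4) and the peak 348199 bp from Ntrk3 (13.1). The last differed from the others in its TEAD values, since its fold enrichment was 5.25 at 3 d and 38.2 at 7 d.

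The values of TEAD at 3 d and 7 d chose these peaks and are given as a description. The median TEAD fold enrichment of the 15539 early distal peaks was 5.75 at 3 d (quartiles 4.76 and 7.55) and 7.99 at 7 d (quartiles 5.91 and 11.6), with a range at 7 d from 2.76 to 73.5. Of the early distal peaks, 1609 (10.4%) reached the median of the constitutive distal peaks, the 3694 promoter-distal 7 d peaks that also overlapped a WT peak, which was 17.2. Their median length was 391 bp, against 602 bp for the constitutive distal peaks. The 7 d summit lay a median of 34.0 bp from the summit of its 3 d peak, and in 13208 peaks (85.0%) at most 100 bp from it.

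Per 10M tags, the pileup at the summit had a median of 6.91 at 3 d and 9.34 at 7 d. The ratio of 7 d to 3 d had a median of 1.36 (quartiles 1.11 and 1.71). It was at least 1.5 in 5885 early distal peaks (37.9%), against 33.6% of all 7 d peaks with a 3 d partner, and at most its inverse in 196 (1.26%), against 1.47% of all such peaks. The ratio was higher among the higher peaks, with a median of 1.20, 1.29, 1.43 and 1.66 in 4 groups of about equal size from the lowest to the highest mean pileup. These groups were cut on the same pileups as the ratio, and each peak had to be called in both lists. The lowest pileup called was 3.63 at 3 d and 4.15 at 7 d, near the medians of 5.27 and 6.23 in the lowest group. The part of these floors in the trend was not tested. The constitutive distal peaks had a median ratio of 1.38. When the ratios were set relative to these, a shift of 0.46 on the log2 scale, the median of the early distal peaks became 0.991, 1991 (12.8%) were at least 1.5-fold higher at 7 d and 1453 (9.35%) were at least 1.5-fold lower. The share of higher among all changed early distal peaks went from 96.8% to 57.8% with this scaling, so the direction of the typical peak rests on the scaling between lists. Pileup at 3 d and at 7 d correlated across early distal peaks (Pearson's r of 0.66 on the log2 scale and Spearman's rho of 0.61), as a description of 2 merged libraries that share the control library and the choice of the peaks.

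**Figure D1:**
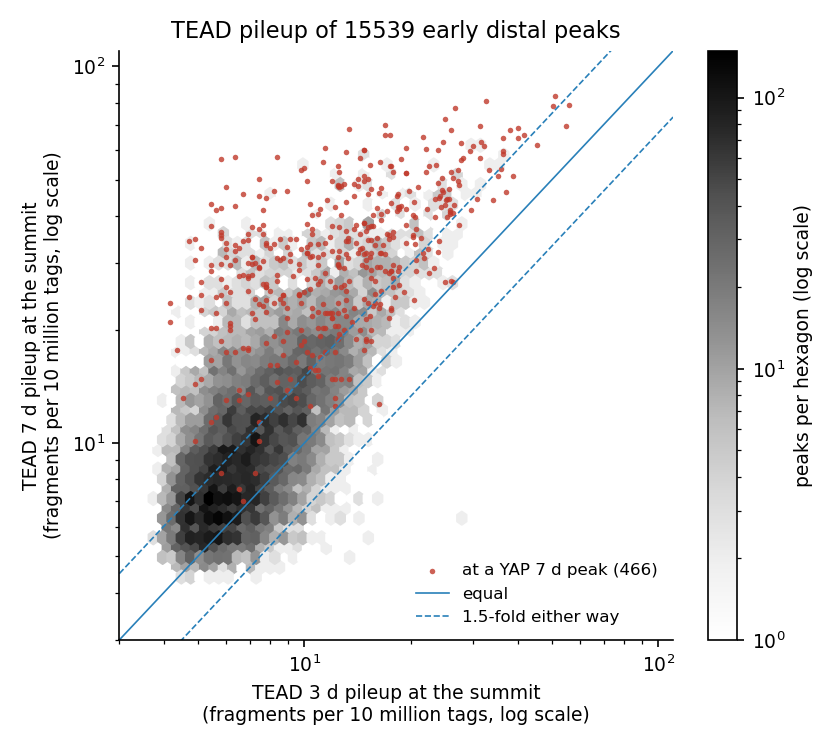
TEAD pileup at the summit at 3 d (horizontal axis) and 7 d (vertical axis) of the 15539 early distal peaks, in fragments per 10M tags on log scales. Grey hexagons count peaks, red points are the 466 peaks at a YAP peak at 7 d, and the blue lines mark equal values and a change of 1.5-fold either way. Of all points, 84.9% lie above the line of equal values, and the YAP-bound peaks have a median fold enrichment of 27.8 at 7 d.

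Among early distal peaks with at least 10-fold enrichment in either list, the highest ratios were 10.7 in an intron of Tbl1xr1, which encodes a subunit of the NCoR/SMRT corepressor complex, 9.73 at a peak 135686 bp from Fam43a, and 9.02 at a peak 111173 bp from Tjp1, the gene of the tight junction protein ZO-1. Their fold enrichment rose from 3.95 to 45.7, from 5.25 to 51.4 and from 5.75 to 50.4. The peaks of Fam43a and Tjp1 overlapped a YAP peak at 7 d, and that of Tbl1xr1 did not. The lowest ratios were 0.150 in an intron of Apbb2, 0.194 near Srbd1 and 0.20 in an intron of Nmnat2. In these 3 cases the 7 d peak was short (238 to 365 bp) and its 3 d partner was 1039 to 1359 bp long, with a summit 657 to 774 bp away, and reached a WT TEAD peak that the 7 d peak missed by 84 to 296 bp. Such partners that themselves overlapped a WT peak belonged to 70 early distal peaks (0.450%), which held 49 of the 196 peaks that were at least 1.5-fold lower at 7 d and had a median ratio of 0.541, against 1.37 in the others.

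The edges of the rule were as follows. The smallest overlap with a 3 d peak was 1 bp, at a peak of 4.52-fold enrichment, and 98.3% of the early distal peaks shared at least 50% of the shorter peak. A WT peak lay within 1000 bp of 500 early distal peaks (3.22%) and within 100 bp of 33, whose median fold enrichment at 7 d was 5.50, while the 26 constitutive distal peaks with under 100 bp of WT overlap had a median of 5.87. On the other side, 123 late distal peaks, those with neither a 3 d nor a WT partner, lay within 100 bp of a 3 d peak, and 108 early distal peaks within 100 bp of a promoter window had a median of 6.75. The WT list had been called with a fragment length of 400 bp, and the 3 d and 7 d lists with 207 and 206 bp. After rescaling the pileup and background of the 3 d and 7 d peaks to the WT number of tags, 15130 early distal peaks (97.4%) still passed the p-value of the caller in both lists. With the background, but not the pileup, also scaled to the WT fragment length, 8086 (52.0%) passed. The part of these settings in the absence of a WT call was not tested beyond this rescaling, since the WT reads were not analysed here.

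YAP was not used in the choice of these peaks. At 7 d, 466 early distal peaks overlapped a YAP peak (3.00%, interval 2.74 to 3.28%), against 3.58% of all 7 d TEAD peaks. These sites took 468 of the 1478 YAP peaks at 7 d (31.7%). In WT livers 2 early distal peaks overlapped a YAP peak, and at 3 d none did (0 of 15539, interval 0 to 0.0247%). The YAP lists of WT and 3 d livers held only 156 and 110 peaks in all.

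The share of YAP-bound peaks was lower than the 16.1% of the constitutive distal peaks (a difference of -13.1 percentage points, interval -14.4 to -11.9). It was higher than the 0.996% of the late distal peaks (2.0, interval 1.66 to 2.34) and than the 0.801% of the early promoter peaks, those of the same TEAD timing that overlap a promoter window (2.20, interval 1.85 to 2.53). TEAD fold enrichment moved with these shares. In the highest decile of all 7 d TEAD peaks (fold enrichment of at least 19.1), a YAP peak was found at 30% of 1228 early distal peaks, 32.5% of 1615 constitutive distal peaks, 29.8% of 208 late distal peaks and 24.4% of 160 early promoter peaks. Weighting the other groups to the deciles of the early distal peaks changed the differences to -3.31 (interval -4.44 to -2.18) from constitutive distal peaks, -0.0397 (interval -0.641 to 0.561) from late distal peaks and 0.735 (interval 0.131 to 1.34) from early promoter peaks. In the 2 lowest deciles, 14.9% of 74 and 11.1% of 63 constitutive distal peaks but 0.180% of 1111 and 0% of 1289 early distal peaks overlapped a YAP peak. In deciles 7, 8 and 9 the shares of constitutive distal peaks were 0.717%, 1.58% and 4.07%, against 0.258%, 1.11% and 3.65% of early distal peaks. At matched TEAD enrichment the interval of the difference between early and late distal peaks included zero.

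**Figure D2:**
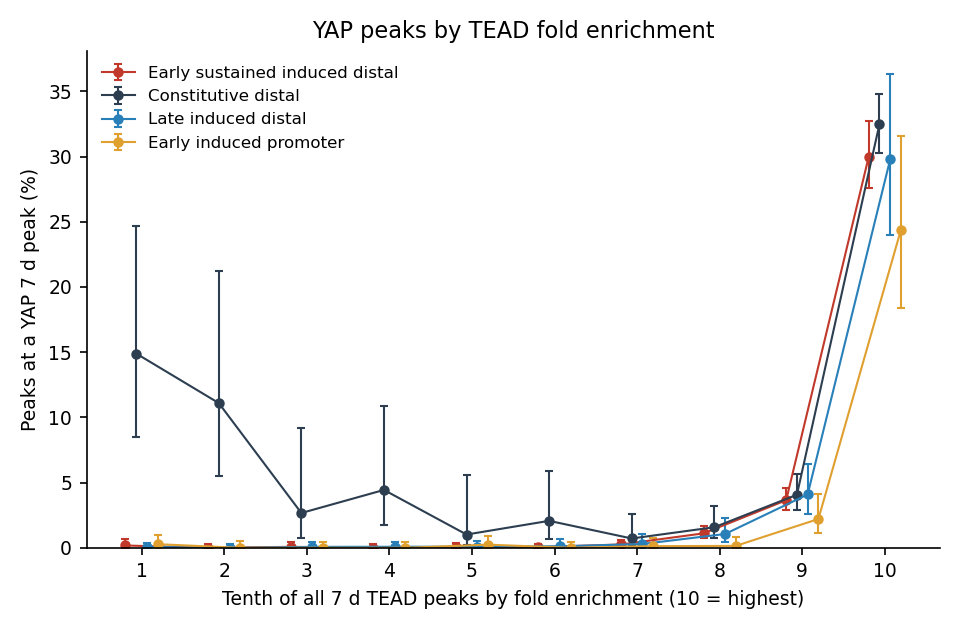
Share of 7 d TEAD peaks that overlap a YAP peak at 7 d (vertical axis, percent), by decile of all 7 d TEAD peaks ranked by fold enrichment (horizontal axis). Points are 4 groups of TEAD peaks and bars are 95% Wilson intervals. The early distal peaks stay at or under 0.258% up to decile 7 and reach 3.65% in decile 9 and 30% in decile 10, where the intervals of the 3 distal groups overlap. The constitutive distal peaks also reach 14.9% and 11.1% in deciles 1 and 2, on 74 and 63 peaks.

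Of the 466 YAP-bound early distal peaks, 369 (79.2%) were in that highest decile. Their median TEAD fold enrichment was 10.8 at 3 d and 27.8 at 7 d, while the peaks without YAP had 5.75 and 7.78. The median ratio of 7 d to 3 d was 2.41 at YAP-bound peaks and 1.35 at the others, and 86.7% against 36.4% were at least 1.5-fold higher at 7 d. Within the highest decile, YAP was called at 30.4% (interval 27.8 to 33.2%) of the 1105 early distal peaks with a ratio of at least 1.5 and at 26.8% (interval 19.8 to 35.3%) of the 123 with a lower ratio, and these intervals overlap. YAP and TEAD summits lay at most 100 bp apart in 414 of the 466 (88.8%). Among the 100 highest early distal peaks, all of at least 41.0-fold enrichment, 77 overlapped a YAP peak, 75 held CATTCC within 100 bp of the summit and 58 were intergenic.

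The DNA under the peaks was then searched for 20 motifs in windows of 201 bp centred on the 7 d summit, as exact letters on both strands, with overlapping matches counted. CATTCC was found in 5206 of the 15522 placed early distal peaks (33.5%, interval 32.8 to 34.3%), against 35.2% of all 7 d TEAD peaks and 10.5% of windows of the same length 1000 bp to either side. It was centred, with a nearest copy at a median of 21.5 bp from the summit and 8.34% of the peaks having a copy placed in the 20 bp just past it, against a mean of 1.13% in the outermost bins. The share rose with TEAD fold enrichment, from 18.5% in the lowest decile to 59.1% in the highest. A longer form, ACATTCC, was present in 16.3% of early distal peaks and in 2.89% of their flanks. The spaced pair with 3 bases between copies was present in 25 early distal peaks (0.161%, interval 0.109 to 0.238%) and in 2 of the 31044 flanking windows. It was rarer there than in constitutive distal peaks (0.434%, interval 0.267 to 0.703%) and late distal peaks (0.401%, interval 0.291 to 0.552%). Of all 7 d TEAD peaks, 0.239% held it.

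**Figure D3:**
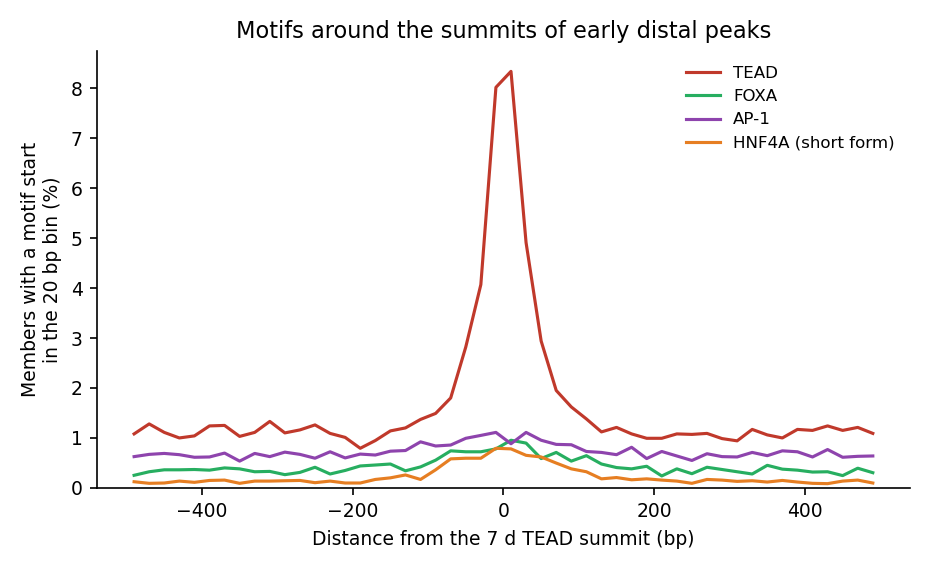
Share of the 15522 placed early distal peaks with a motif placed in each 20 bp bin (vertical axis, percent), by distance from the 7 d TEAD summit (horizontal axis, bp). Lines are the TEAD, FOXA, AP-1 and short HNF4A motifs on either strand. TEAD peaks at the summit with 8.34%, and the HNF4A, FOXA and AP-1 lines reach 0.792%, 0.953% and 1.11%.

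Motifs of hepatocyte factors stood at the same summits. The HNF4A motif CAAAGTCCA was found in 2.40% of early distal peaks and 0.345% of their flanks, and the HNF1 motif in 1.71% and 0.235%, which were the highest ratios to the flanks (6.96 and 7.28) after the rare TEAD pair. A form of the HNF4A motif with 1 free base, CAAAGTNCA, was in 5.65% of peaks and 1.08% of flanks. The C/EBP motif TTGCNNAA was in 17.4% against 8.55%, the forkhead motif TGTTTAC of FOXA in 6.79% against 2.84%, the NFI element TTGGCA in 22.7% against 10.2% and the nuclear receptor element AGGTCA in 24.6% against 12.4%. The ONECUT motif ATCGAT was in 1.62% against 0.589%. Constitutive distal peaks had like shares of the NFI element (23.8%) and the ONECUT motif (1.63%), and late distal peaks had 20.6% and 1.14%. AP-1, with TGANTCA in 8.83% against 6.02%, and the E-box CACGTG, with 4.05% against 2.63%, were closer to their flanks. The SOX motif ACAATG (10.7% in both), the GATA motif AGATAA (12.3% against 11.3%), the RUNX motif TGTGGTT (4.30% against 5.18%) and CCCTCT of CTCF (15.9% against 16.1%) were about as frequent in peaks as beside them. Base composition differed little, with a median GC content of 46.3% in peaks and 44.8% in flanks. These matches are letters in a window and do not show that the factor was bound.

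Compared with the other distal peaks, early distal peaks held fewer TEAD motifs and more HNF4A and nuclear receptor motifs, and against late distal peaks also more C/EBP and HNF1 motifs. CATTCC was less frequent than in constitutive distal peaks (53.8%, a difference of -20.3 points, interval -22.0 to -18.5) and than in late distal peaks (39.3%, -5.78, interval -7.03 to -4.54). With the same weights over deciles of TEAD fold enrichment these differences were -12.2 (interval -14.8 to -9.54) and -11.3 (interval -12.7 to -9.86). AP-1 was also less frequent than in late distal peaks (12.2%, -3.37, interval -4.18 to -2.57). The HNF4A motif with 1 free base was more frequent than in late distal peaks (3.34%, a difference of 2.31, interval 1.79 to 2.82), as were C/EBP (14.7%, 2.69, interval 1.74 to 3.62) and HNF1 (1.18%, 0.532, interval 0.223 to 0.827). Each of these kept its sign and an interval on 1 side of zero when weighted over the deciles (AP-1 -4.56, HNF4A 2.21, C/EBP 3.10 and HNF1 0.553). Against constitutive distal peaks the HNF4A difference was 0.826 (4.82%, interval 0.00698 to 1.57) and 1.95 when weighted (interval 1.01 to 2.89). For HNF1 it was 0.0335 (interval -0.472 to 0.460) and 0.601 when weighted (interval 0.0878 to 1.11). The nuclear receptor element was more frequent than in constitutive distal peaks (2.30, interval 0.775 to 3.78, and 4.97 when weighted, interval 2.84 to 7.09) and than in late distal peaks (3.67, interval 2.59 to 4.73, and 3.52 when weighted, interval 2.31 to 4.73). FOXA did not differ beyond counting error from either group (0.589 against late distal, interval -0.0505 to 1.21, and -0.256 against constitutive distal, interval -1.21 to 0.626). Neither did AP-1 and C/EBP from constitutive distal peaks without the weights (0.371, interval -0.667 to 1.34, and -0.452, interval -1.85 to 0.894), while the weighted differences were 1.54 (interval 0.161 to 2.93) and 1.92 (interval 0.0119 to 3.83). The ETS motif CCGGAAG was in 9.48% of early promoter peaks and 1.13% of early distal peaks (a difference of -8.34, interval -9.08 to -7.64).

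**Figure D4:**
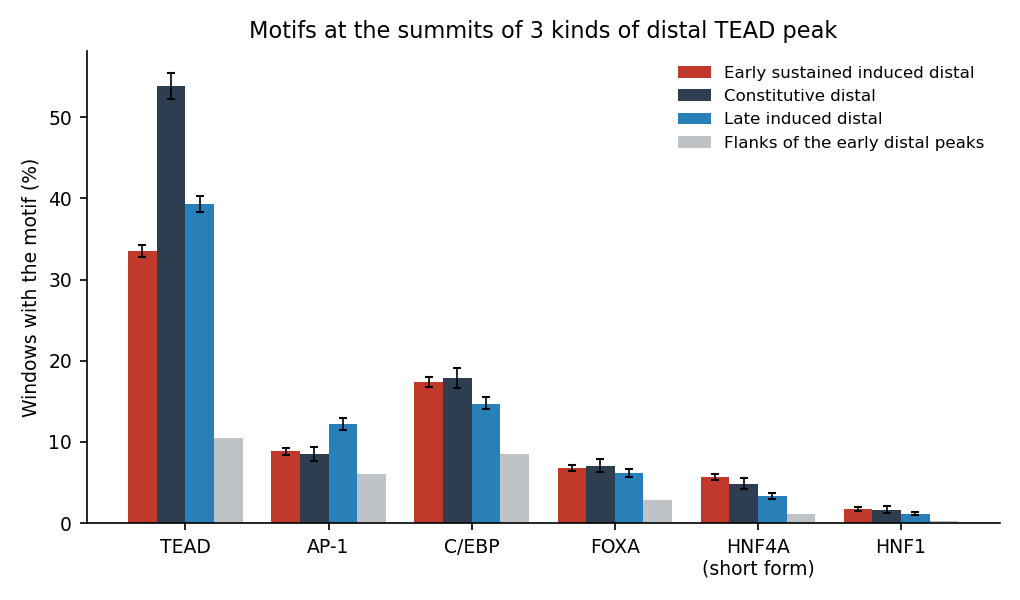
Share of windows of 201 bp with each motif (vertical axis, percent) for 3 groups of distal 7 d TEAD peaks and for the flanks of the early distal peaks. Bars are shares and black lines are 95% Wilson intervals, with none drawn for the flanks. TEAD motifs are in 33.5% of early, 53.8% of constitutive and 39.3% of late distal peaks, while AP-1 is highest in late distal peaks with 12.2%.

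Within the early distal peaks, the number of TEAD motifs moved with TEAD and YAP. The median fold enrichment at 7 d was 7.30 without CATTCC, 9.10 with 1 copy and 12.3 with 2 or more, and the share of YAP-bound peaks was 1.57% of 10316, 4.68% of 4551 and 13.9% of 655. In the highest decile of TEAD enrichment the shares were 24.3% (interval 20.8 to 28.2%), 30.3% (interval 26.6 to 34.2%) and 46.2% (interval 38.9 to 53.7%). TEAD fold enrichment moved with them there too, with a median of 24 without a copy, 24.8 with 1 and 28 with 2 or more, and its part in the YAP shares was not tested further. Of the 25 peaks with the spaced pair, 12 were YAP-bound (48%, interval 30 to 66.5%). Their median fold enrichment was 6.89 at 3 d and 25.5 at 7 d. A YAP peak was found at 3.43% of peaks with the AP-1 motif (interval 2.59 to 4.53%) and at 2.96% of those without it (interval 2.69 to 3.25%), and these intervals overlap. The ratio of 7 d to 3 d pileup had a median of 1.47 in peaks with CATTCC and 1.32 in those without it, 1.48 and 1.35 for AP-1, and 1.38 and 1.36 for the HNF4A motif CAAAGTCCA.

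Early distal peaks lay in introns of protein-coding genes in 50.5% of cases (7838 of 15522, interval 49.7 to 51.3%), between genes in 46.2% and in exons in 3.28%. The shares of the constitutive distal (47.5% intronic) and late distal peaks (49.1%) were close to this. The median distance to the nearest protein-coding start was 18631 bp (quartiles 7159 and 49020 bp), 33.3% were within 10 kb and 1807 (11.6%) beyond 100 kb. Late distal peaks lay further out, with a median of 22200 bp and 16.1% beyond 100 kb. YAP was called at 2.42% (interval 2.04 to 2.88%) of early distal peaks within 10 kb of a start and at 4.21% (interval 3.37 to 5.23%) of those beyond 100 kb, whose median TEAD fold enrichment was 7.72 and 8.48. The X chromosome held 178 early distal peaks (1.15%, interval 0.990 to 1.33%), against 1.58% of all 7 d TEAD peaks. The share was 0.731% in constitutive distal peaks, 1.32% in early promoter peaks and 0.996% in the whole 3 d list. Late distal peaks had the highest share, 2.64% (interval 2.33 to 2.99%), so a low X share was not particular to the early distal peaks.

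The peaks were grouped along the genome. Another early distal peak lay within 10 kb of 6912 of them (44.5%), and any other 7 d TEAD peak within 10 kb of 65.5% (interval 64.7 to 66.2%). The latter share was 66.7% (interval 65.1 to 68.2%) for constitutive distal and 56.9% (interval 55.9 to 57.9%) for late distal peaks. A constitutive TEAD peak lay within 10 kb of 18.3% of early distal peaks and of 13.9% of late distal peaks (intervals 17.7 to 18.9% and 13.2 to 14.6%). Runs of 5 or more early distal peaks with gaps of at most 10 kb numbered 133, and the longest held 11 peaks. There were 3 such runs, around Egfr (48.7 kb), from Alb to Afp (24.8 kb) and at 9930013L23Rik (34.1 kb).

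When each peak was given to the nearest protein-coding start, 6728 of 22380 genes (30.1%) had at least 1 early distal peak, 765 had 5 or more and 127 had 10 or more. This count follows the amount of sequence around a gene, since 9.99% of the genes in the lowest of 4 classes of that span had a peak and 51.5% in the highest. The genes with most peaks were Myc (29), Lpp (24), Ptprg (22), Zmiz1 (22) and Sox5 (20), all with wide spans of 686 to 1443 kb. Myc, the growth-promoting transcription factor, had 25 of its 29 peaks more than 100 kb from its start. Their fold enrichment at 7 d ranged from 4.95 to 44.3 with a median of 9.38, and 1 of the 29 was YAP-bound. The highest of them lay 513748 bp downstream of the Myc start, with 27 at 3 d and 44.3 at 7 d, and the YAP-bound one 470588 bp downstream, with 12.5 and 29.7. Lpp and Ptprg, which encode an adhesion-site LIM protein and a receptor tyrosine phosphatase, had peaks of up to 23.1-fold and 43.6-fold.

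In 12 gene lists, the genes with a peak were counted beside all genes of the same span classes. Canonical YAP/TEAD targets had an early distal peak in 22 of 26 genes (84.6%, interval 66.5 to 93.8%), against 42.5% of all genes in the same classes. Hepatocyte transcription factors had one in 18 of 22 (81.8%, interval 61.5 to 92.7%, against 36.0%), and liver metabolism and plasma protein genes in 28 of 35 (80.0%, interval 64.1 to 90.0%, against 31.0%). Actin cytoskeleton and adhesion genes followed with 26 of 34 (76.5%, against 41.7%), growth factor receptors and ligands with 18 of 28 (64.3%, against 39.2%) and AP-1 and stress factors with 9 of 15 (60%, against 28%). Chemokine and inflammation genes had 16 of 30 (53.3%, interval 36.1 to 69.8%, against 31.4%). In the other lists the interval included the share of all genes of like span, namely biliary and progenitor genes (12 of 24), Notch pathway (8 of 17), Hippo pathway (12 of 26), cell cycle (11 of 25) and extracellular matrix genes (11 of 27). The lists were chosen with results of these data known, and no list was tested against the others.

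**Figure D5:**
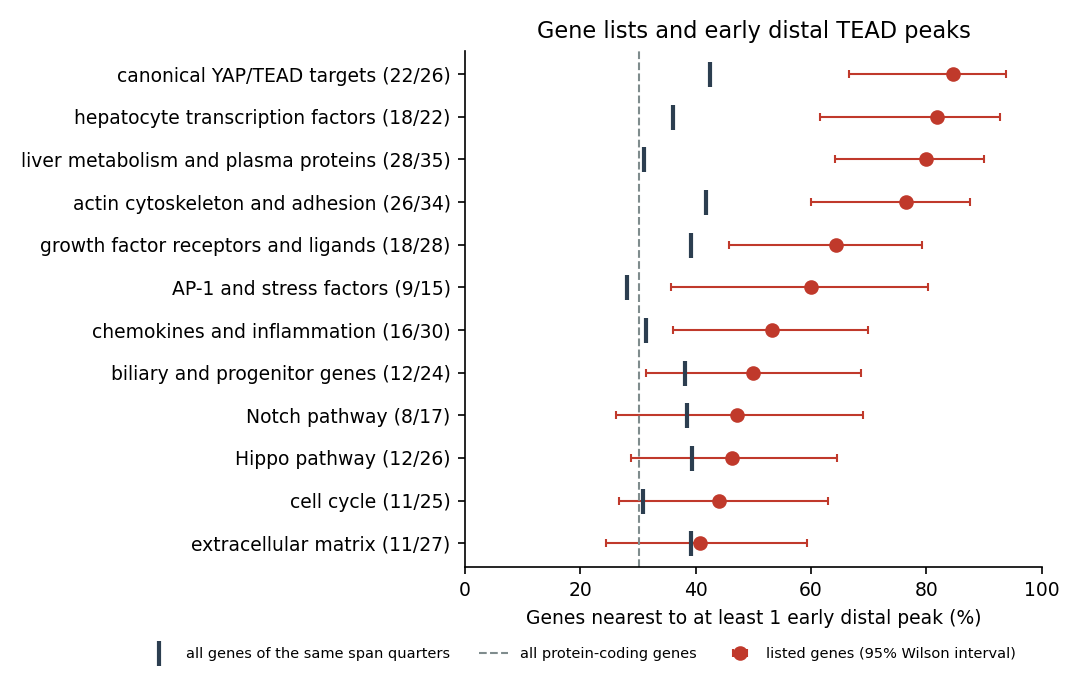
Share of the genes of each list that are nearest to at least 1 early distal peak (horizontal axis, percent). Red points are the listed genes with 95% Wilson intervals, black ticks are the shares of all genes in the same span classes, and the dashed line is the 30.1% of all protein-coding genes. The intervals of 7 lists lie above their tick, with the canonical targets highest at 84.6%.

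The hepatocyte transcription factors were the list with most peaks, 114, and 0 of these overlapped a YAP peak at 7 d, where 3.00% of all early distal peaks did, so that few would be counted in a list of this size. Nr5a2, which encodes the nuclear receptor LRH-1, had 17 early distal peaks of 4.51 to 19.6-fold. Foxa2, a forkhead factor of liver development, had 12, the highest 31817 bp from its start with 15.6 at 3 d and 28.0 at 7 d. Ppara, the fatty-acid sensing receptor, had 10, the highest 49904 bp from its start with 22.5 and 33.0. Hnf4a and Cebpa, named here after their values were seen for their place in the hepatocyte programme, had 7 and 9. The peaks of Hnf4a ranged from 4.55 to 11.3-fold and 6 of them lay in its introns, and those of Cebpa ranged from 4.34 to 16.7-fold. Genes of hepatocyte function showed the same kind of peak. Ppargc1a, a coactivator of gluconeogenesis, had 15 peaks of up to 23.6-fold, Apob, the apolipoprotein of VLDL, had 8 of up to 10.6-fold, and Cps1, the entry enzyme of the urea cycle, had 7 of up to 21.7-fold. In this list, 1 of 99 peaks overlapped a YAP peak.

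Alb and Afp, the neighbouring genes of adult albumin and foetal alpha-fetoprotein, had 9 and 6 early distal peaks. They were low, with a median of 4.87-fold at 7 d, and their median ratio of 7 d to 3 d was 1.02. These 15 peaks overlapped 11 different 3 d peaks, and 4 of them shared a 3 d peak of 2023 bp and 5.64-fold enrichment. The highest was 12.8-fold, 2274 bp upstream of the Afp start, where TEAD was 3.56-fold at 3 d. None was YAP-bound.

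Among the canonical targets, 22 genes shared 66 early distal peaks. Amotl2, which encodes a YAP-binding angiomotin family protein, had 5 early distal peaks. The highest, shown above, lay 40668 bp downstream of its start and 467 bp from a WT TEAD peak. In it the fold enrichment went from 5.42 at 3 d to 28.8 at 7 d. The others had 6.83, 12.5, 18.1 and 17.9 at 7 d, and 4 of the 5 were at least 1.5-fold higher in pileup at 7 d. Ctgf, a secreted matricellular protein, had 6 peaks with 17.4, 13.3, 6.36, 14.6, 4.93 and 8.01-fold enrichment at 7 d, and 3 of them lay more than 100 kb upstream. Gadd45a, a stress-response gene, had 9 peaks of 4.17 to 11.2-fold, the highest within an intron of Gng12, which shows the limit of naming the nearest start. Asap1, which encodes an Arf GTPase-activating protein, had 8, of which 1 at 15.8-fold was YAP-bound and lay 428 bp from a WT TEAD peak. Cyr61 and Ankrd1, named here after their values were seen as classic targets, each had 2, the highest 16.9 kb and 9.08 kb from the start with 21.5 and 22.6-fold at 7 d. In all, 5 of the 66 peaks of this list overlapped a YAP peak, at 5 genes, where 3.00% of all early distal peaks did. This small count was not tested.

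In the Hippo pathway list, 12 genes shared 47 early distal peaks. Wwc1, which encodes the upstream activator KIBRA, had 14 early distal peaks, 13 of them in its own introns. Their fold enrichment ranged from 3.99 to 31.8 at 7 d, the highest 3834 bp inside the gene with 11.2 at 3 d. This highest peak lay 631 bp from a WT TEAD peak. Vgll4, a competitor of YAP for TEAD, had 9, and its highest, 21.5-fold and 1828 bp inside the gene, was YAP-bound. A WT TEAD peak lay 997 bp from this Vgll4 peak. Frmd6 had 4 of up to 11.1-fold and Lats2, a kinase that phosphorylates YAP, 3 of up to 9.24-fold. Lats1, Stk3, Stk4, Sav1 and Wwtr1 had none. Lats2 and these 5 genes are named after their values were seen.

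The biliary and progenitor list held 37 early distal peaks and the Notch list 28, with 1 YAP-bound peak each, against 3.00% of all early distal peaks. Sox4 had 5, the highest 38.9-fold at 317102 bp from its start. Sox9, a biliary and progenitor transcription factor, had 6, of which 2 upstream peaks had 27.8 and 13.9-fold and the others lay 253 to 381 kb downstream. Klf6 had 8 of up to 17.4-fold. Krt19, Epcam, Krt7 and Itgb6, which biliary epithelium expresses and which are named after their values were seen, had none. Hes1, a direct target of Notch, had 7 peaks between 5.93 and 19.9-fold, Maml3, a Notch coactivator, 5 of up to 20.7-fold, the highest YAP-bound, and Rbpj, the DNA-binding protein of the pathway, 4 of up to 15.1-fold.

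In the list of AP-1 and stress factors, 2 of 50 early distal peaks overlapped a YAP peak at 7 d. In the actin and adhesion list 5 of 104 did, in the growth factor list 5 of 95 and in the cell cycle list 3 of 27. Of all early distal peaks 3.00% did, and no list was tested. Fos had 5 early distal peaks, and the one 5215 bp downstream of its start went from 7.06-fold at 3 d to 40.5-fold at 7 d and overlapped a YAP peak of 7.86-fold. Jun had 6 of up to 15.7-fold, none YAP-bound. Tln2, the talin that links integrins to actin, had a YAP-bound peak of 58.7-fold, 119014 bp from its start, where TEAD was already 33.0-fold at 3 d. Egfr, the receptor of EGF and named after its values were seen, had 6, of which the highest, 68442 bp upstream, had 31.8-fold at 3 d and 45-fold at 7 d, 2 TEAD motifs and a YAP peak. Igf1 and Insr each had 13, of up to 27.3 and 18.4-fold, and none was YAP-bound, while Vegfa had 11 with 1 YAP-bound at 29.1-fold. Ccnd1, the G1 cyclin, had 7, and its YAP-bound peak 105631 bp upstream went from 5.31 to 24.9-fold. Il1r1, the interleukin-1 receptor gene, had 9 of up to 20.5-fold, and was among the 16 genes of the inflammation list with a peak. In that list 0 of 44 peaks overlapped a YAP peak. Lamc1, a laminin chain, had 6, and 2 of these were YAP-bound. In its extracellular matrix list 3 of 40 peaks were.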

How the data were processed

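TEAD and YAP ChIP-seq peaks came from 6 deposited lists, 1 per group. The authors aligned the reads to mm9 with BWA 0.6.2 and merged the replicates of a group with duplicates removed, and, per the file headers, MACS2 2.0.9 called peaks at a p-value of 1e-05 against a control of 167176362 tags, which the study's methods trace to published data. The submitters' processing notes also name SAMtools. Pileup, as deposited, is a signal that counts the extended fragments over the summit. The deposited fold enrichment is the ratio of pileup to local background, and the deposited −log10 p-value and −log10 q-value belong to the same test. The TEAD antibody is sold against TEAD4 and, by the methods of the study, also reads other TEAD proteins. YAP tissue was fixed with DSG and formaldehyde, TEAD tissue with formaldehyde alone.

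Here, peaks were joined by overlap of at least 1 bp in Python 3.11.15 (pandas 2.3.3, scipy 1.17.1, pysam 0.24.0), with the strongest 3 d peak by p-value as partner. Pileup was divided by the tags of the list. Genes, starts and sequence came from GENCODE vM1 and NCBIM37, the same build as the peaks. Motifs were searched as exact letters, 20 in all. HNF1, the NFI palindrome and the TEAD pair are given by name. Overlap, motif and interval code was tested on simulated data. Alternatives changed the overlap, summit distance, thresholds, promoter window, motif and scaling, and the rescalings to the WT list were added after seeing the data. With 1 list per group, differences carry intervals and no p-values. The named peaks were the 5 with the highest 7 d fold enrichment, the 5 with the strongest YAP peak, the 3 highest and lowest ratios, the 5 genes with most peaks and up to 4 genes per list, with mouse chromosome 18 left out. Other named genes are marked, or come from the lists. The peaks, lists and motifs were chosen with earlier results of these data known.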

Additional observations from a re-analysis of the deposited data

How the results depend on the processing

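No paired analysis was possible because each group is 1 merged list, so no replicate was left out either. The number of early distal peaks moved by over 1.5 times with a minimum of 5-fold enrichment (10070). It also did so (8086) with a rescaling chosen after seeing the data. This took pileup and background to the WT depth, and the background alone, not the pileup, to the WT fragment length. With this rescaling the YAP share was 5.07%, the TEAD motif share 39.3%, the median fold enrichment 10.5, the median ratio 1.38, the share with a neighbour within 10 kb 27.8% and the share of genes 20.5%. With at least 5-fold enrichment these were 4.29%, 37.7%, 9.66, an unmoved ratio, 32.0% and 23.7%, with −log10 p of at least 10 an unmoved YAP share, 36.4%, 8.93, 1.39, 37.7% and 26.8%, and with summits at most 100 bp apart 3.65%, 35.6%, 8.48, 1.39, 38.5% and 28.5%. YAP and TEAD summits at most 100 bp apart gave a YAP share of 2.67%. The TEAD motif share was 26.1% with 50 bp and 37.4% with 150 bp on either side, 57.3% for CATTC and 16.3% for ACATTCC. The neighbour share was 45.4% with a promoter window of 1000 bp, 43.6% with all annotated starts, 43.1% without WT peaks within 1000 bp, 43.6% at the WT depth and 63.6% at 25 kb, and the gene share was 31.0% and 29.5% with these promoter settings. Scaled by constitutive distal peaks, the median ratio turned to 0.991 and the peaks at least 1.5-fold higher fell to 1991.

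The difference in YAP share from constitutive distal peaks was -10.2 (−log10 p of at least 10), -11.8 (5-fold), -11.5 (YAP and TEAD summits) and -3.31 (weighted over deciles), that from early promoter peaks 3.10 (5-fold) and 0.735 (weighted), and that from late distal peaks 3.17 (5-fold) and -0.0397 (weighted), which turned the sign. The weighted differences in TEAD motif share, -12.2, 6.48 and -11.3 from constitutive distal, early promoter and late distal peaks, kept theirs. The cause was not tested where a value moved. The intronic share stayed within its interval under every alternative run.

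The number of YAP peaks limits the YAP comparisons, since 1478 YAP peaks at 7 d stand against 38984 TEAD peaks. Early distal peaks are defined by absence from a WT list of 5695 peaks, called on fewer tags and with longer fragments than the 3 d and 7 d lists.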
